A study of Mus musculus with 20 samples.

Results

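Mical3, Erc1, Foxj2, Necap1, Clec4a1, Clec4a3, Clec1a, Klrb1a, Klrb1b and Klrb1c are 10 protein-coding genes on mouse chromosome 6 that lie on either side of C3ar1, the gene for the complement C3a receptor (C3aR). They were chosen because their values in C3ar1 knockout microglia had been seen to differ from control microglia or because they adjoin C3ar1, as candidates for a difference tied to the chromosome around the knockout allele. They are 10 of the 21326 rows listed for each library. In the 14 libraries that carry the knockout comparisons, 9 of them passed a filter on low values that 12410 genes passed in all, and Klrb1c did not. Because the knockout values chose these genes, the knockout comparisons are given below as a description without a test, and tests are given for APP-KI against WT.

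RNA was sequenced from microglia sorted from the brain of C57BL/6 mice at 9 months of age, in 20 libraries. WT mice carried neither change. C3aRKO mice lacked C3ar1. APP-KI mice carried the APP NL-G-F knock-in, in which the mouse App gene holds a humanized and mutated sequence, and APP-KI;C3aRKO mice carried both. Of these all-sorted microglia there were 3 libraries each of WT (replicates 4 to 6), C3aRKO (1 to 3) and APP-KI (4 to 6), and 5 of APP-KI;C3aRKO (1 to 5). The other 6 libraries, 3 WT and 3 APP-KI, were labelled C3aR+ and came from mice in which a Td-tomato reporter sits in the C3ar1 locus and from cells sorted on that reporter. They are called C3aR-positive here, after their label. The copies of the reporter allele that these mice carried are not stated in the sources used here. According to the methods, the knockout line came from a commercial supplier. It was backcrossed to C57BL/6J over 5 generations before it was crossed with APP-KI, and the 4 genotypes were littermates. A knockout allele is inherited with the DNA around it, so the loss of C3ar1 and the origin of the flanking chromosome cannot be told apart in this design.

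C3aR is a receptor for the complement fragment C3a and in the brain is made mainly by microglia. Beside C3ar1 lies a cluster of C-type lectin receptor genes of the Clec4 family, and further on the natural killer gene complex, which holds the Klrb1 (NKR-P1), Clec2, Klra and neighbouring lectin genes. The Klrb1 genes encode receptors known from natural killer cells, and the complex is known for large differences between inbred mouse strains in gene content and sequence. When a targeted allele made in one strain is bred into another, flanking DNA of the first strain can be kept as passenger DNA, and genes within it can then differ in expression or in how well their reads match a C57BL/6 reference.

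The values are read counts divided by a number for each library, multiplied here by one constant for all libraries, and are called scaled values. They are not divided by gene length, so they compare one gene between libraries and not one gene with another. Whole reads were recovered from them, between 42239056 and 76608464 in an all-sorted library and between 13939559 and 30388941 in a C3aR-positive library, and 1 read was worth between 0.0132 and 0.0786 scaled units. Of the all-sorted libraries, 5 stood apart in the number of genes with a read: C3aRKO 1 (12702 genes), C3aRKO 2 (13055), APP-KI 4 (13250) and APP-KI;C3aRKO 1 (12387) had few, and APP-KI 5 (21219) had reads in nearly every gene listed. The other all-sorted libraries had between 15551 and 17450. Knockout differences are also given without these 5 libraries, which leaves 1 C3aRKO library (C3aRKO 3) and 1 APP-KI library (APP-KI 6), so that they rest on a single library in each comparison.

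On the GRCm38 assembly, called mm10 by the study, C3ar1 spans chr6:122847138-122856161 on the minus strand. Foxj2 lies next to it at chr6:122819914-122845366 on the plus strand. The annotated ends of Foxj2 and C3ar1 face each other across 1771 bases. On the other side come Necap1 (chr6:122874474-122888941, plus strand), Clec4a1 (chr6:122921848-122934619, plus strand) and Clec4a3 (chr6:122952515-122969875, plus strand). Mical3 (chr6:120931707-121130999, minus strand) lies 1.92 Mb and Erc1 (chr6:119570796-119848167, minus strand) 3.28 Mb away on the Foxj2 side. The natural killer gene complex holds Klrb1a (chr6:128609227-128623533), Klrb1c (chr6:128778485-128789215), Klrb1b (chr6:128813706-128826331) and Clec1a (chr6:129424772-129452000), all on the minus strand, between 5.76 and 6.58 Mb away on the side of Necap1. Distances are between the lower coordinates of 2 genes, from the GENCODE M21 annotation.

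The Klrb1 genes are close copies of each other, so their sequences bear on how their reads can be told apart. In the longest annotated coding sequences (702 bases for Klrb1a, 672 for Klrb1b and 816 for Klrb1c), Klrb1a and Klrb1c were identical at 92.6% of aligned bases, Klrb1b and Klrb1c at 85.8% and Klrb1a and Klrb1b at 84.1%. The longest run of bases shared without a difference was 108 for Klrb1a and Klrb1c, 85 for Klrb1a and Klrb1b and 75 for Klrb1b and Klrb1c. A read that falls inside such a run cannot be given to one of the genes from its sequence alone. The first 90 aligned bases without a gap are shown as an example of where the genes can be told apart, in lower case with capitals at the 28 positions at which the 3 genes are not all the same. They start at base 24 of the Klrb1a, base 9 of the Klrb1b and base 150 of the Klrb1c coding sequence and are the C57BL/6 reference of GENCODE M21 (GRCm38), 5′ to 3′ along the transcript.
Klrb1a: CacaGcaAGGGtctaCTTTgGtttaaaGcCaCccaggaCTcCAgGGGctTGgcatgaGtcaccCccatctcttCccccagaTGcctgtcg
Klrb1b: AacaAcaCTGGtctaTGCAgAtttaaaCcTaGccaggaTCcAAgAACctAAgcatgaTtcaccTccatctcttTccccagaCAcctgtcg
Klrb1c: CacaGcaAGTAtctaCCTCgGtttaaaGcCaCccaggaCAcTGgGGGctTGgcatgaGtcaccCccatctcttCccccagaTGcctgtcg

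In this stretch Klrb1a and Klrb1c share most capitals and Klrb1b stands apart. By comparison, the coding sequences of the lectin genes Clec4a1 and Clec4a3 were identical at 71.5% of aligned bases and shared no run longer than 23. Another gene, Gm44511, is annotated across Klrb1b and Klrb1c on the same strand, so that some of their reads could be counted for it. It held at most 15 reads, in C3aRKO 3, and 0 in 17 of the 20 libraries.

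C3ar1 itself was first compared with its labels. Its scaled value was 276, 330 and 340 in WT and 68.1, 39.9 and 65.7 in C3aRKO. In APP-KI it was 165, 315 and 388, and in APP-KI;C3aRKO 80.4, 77.4, 69.4, 75.9 and 61.9. Every knockout library lay below every control library of its background, and none was at 0. The log2 difference was -2.39 (SE 0.27) between C3aRKO and WT and -1.95 (SE 0.24) between APP-KI;C3aRKO and APP-KI, with adjusted p-values of 0.00338 and 0.00971 by limma, and -2.25 (SE 0.16) and -2.43 (SE 0.15) without the 5 libraries that stood apart. The first was not called without WT 4 (adjusted p = 0.0553 by limma), nor the second without APP-KI 5 (0.114) or without APP-KI 6 (0.453), nor either with only the groups compared (0.182 and 0.603). C3ar1 was the 1 gene that limma called among 12410 in each of these comparisons, 0.00806% of the genes tested. DESeq2 on the recovered reads called 9 genes for C3aRKO against WT. In the C3aR-positive libraries C3ar1 was 71.0, 81.2 and 37.6 in WT and 383, 251 and 201 in APP-KI. The WT libraries labelled C3aR-positive thus held C3ar1 below every all-sorted WT library and near the knockout libraries, although they were sorted for its reporter.

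**Figure D1:**
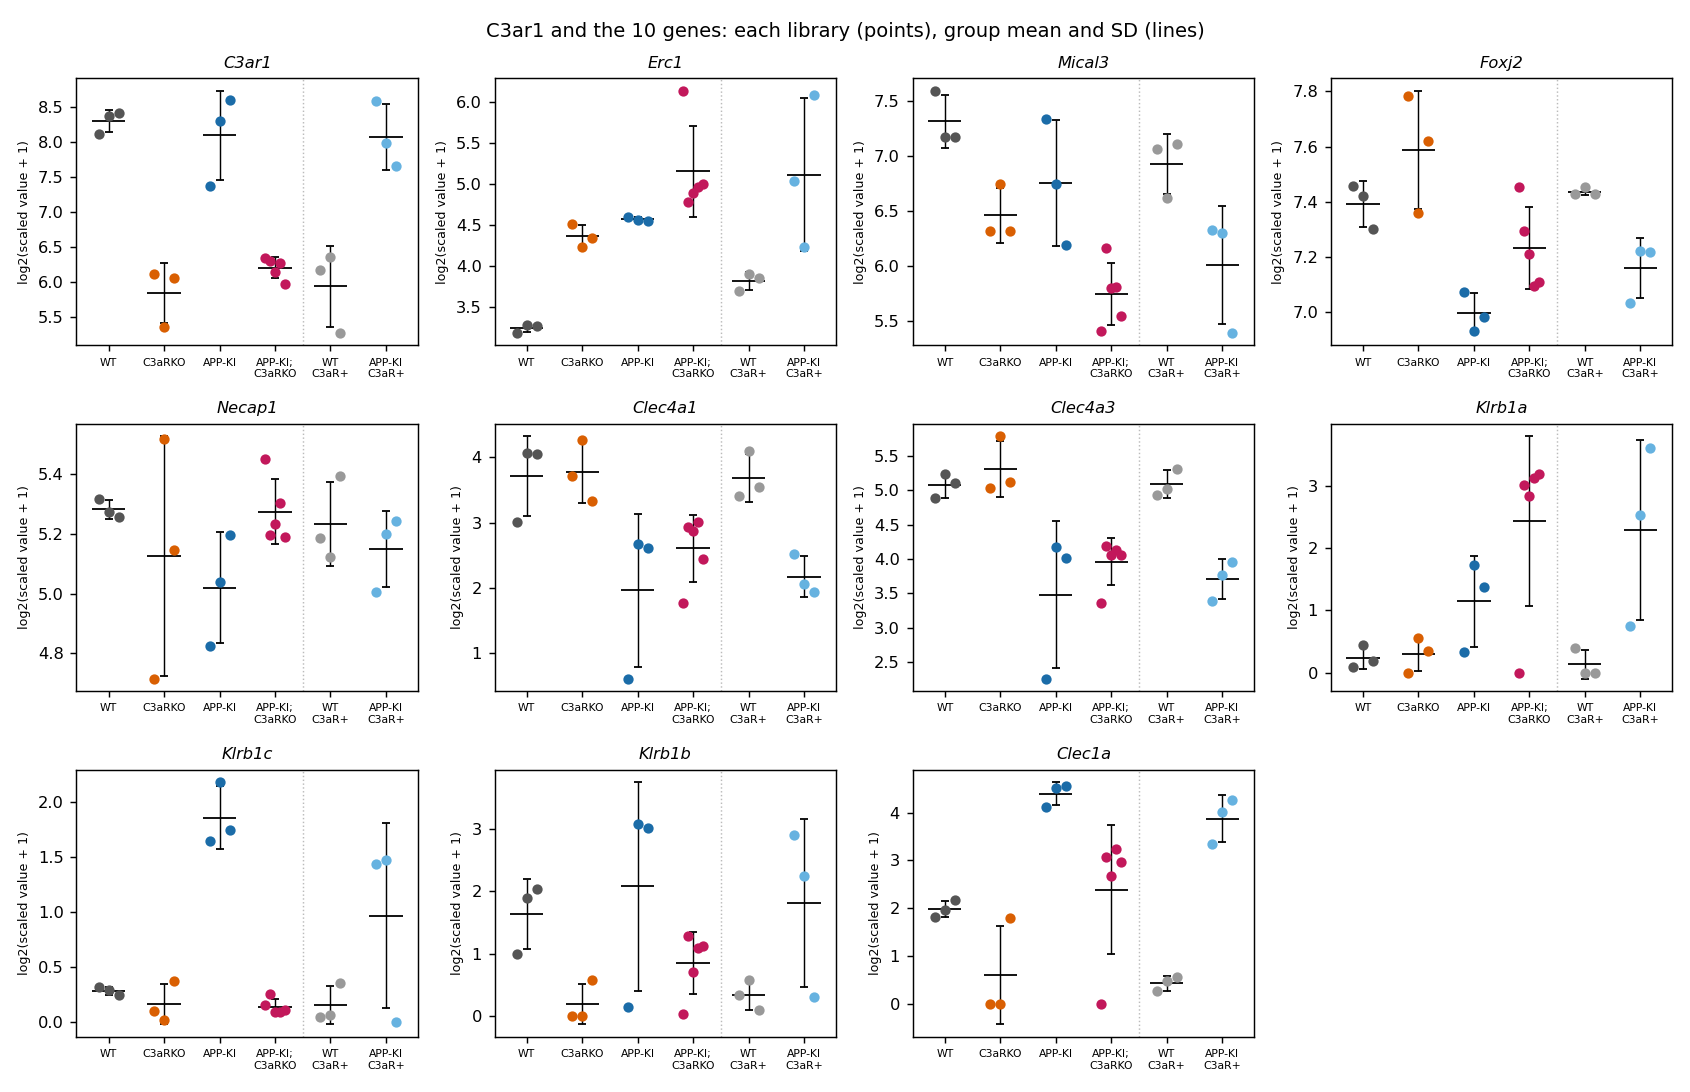
Scaled value of C3ar1 and the 10 genes in each of the 20 libraries, as log2(scaled value + 1) on the vertical axis, by group on the horizontal axis. Points are libraries, and the lines give the group mean and SD of 3 libraries (5 for APP-KI;C3aRKO). The axis range differs between panels, and the dotted line separates all-sorted from C3aR-positive libraries. Mical3 and Clec1a lie lower and Erc1 higher in every knockout library than in every control library of the same background.

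For Mical3, Erc1 and Clec1a, the knockout libraries did not overlap their own controls on either background, in the same direction on both. These are 3 of the 10 genes. Of the 12410 genes tested, 12 did so, or 0.0967%, with 9 lower (0.0725%) and 3 higher (0.0242%) in the knockouts. Since the genes were chosen on these values, nothing is read from the count. Without the 5 libraries that stood apart, 5 of the 10 genes were so separated, Foxj2 and Klrb1b being the further 2, but so were 4.82% of all genes tested. Leaving out any 1 library gave 3 or 4, beside 0.113% to 0.677% of all genes tested. On WT alone the knockout libraries did not overlap in 4 of the 10 genes (18.5% of all genes tested), and on APP-KI alone in 5 (1.61%), Klrb1c included, which is not among the genes tested.

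Mical3 encodes a flavoprotein monooxygenase that acts on actin and on vesicle transport. It was 193, 143 and 144 in WT against 78.8, 106 and 78.6 in C3aRKO. In APP-KI it was 161, 106 and 72.1 against 41.6, 70.5, 54.6, 55 and 45.8 in APP-KI;C3aRKO. The groups stood clear of each other on WT, while on APP-KI the highest knockout library lay just under the lowest control, APP-KI 6. Scaling by the total reads in place of the authors' number let these 2 groups overlap. The log2 difference was -0.97 (SE 0.24) on WT and -0.92 (SE 0.21) on APP-KI, a factor of 1.95 and 1.90. Without the 5 libraries it was -0.86 (SE 0.11) and -0.47 (SE 0.11). Within the libraries numbered in the 24 series it was -1.06 on WT and -1.25 on APP-KI, and within the 26 series -0.86 and -0.47. In these bulk samples, fewer cells of a type that makes Mical3 and less Mical3 RNA per cell cannot be told apart, and the same holds for every gene below.

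Erc1 encodes ELKS, a scaffold protein of the cell cortex and of sites of vesicle release. It was 8.08, 8.68 and 8.65 in WT and 21.9, 17.8 and 19.3 in C3aRKO. In APP-KI it was 23.2, 22.6 and 22.4, and in APP-KI;C3aRKO 69.7, 26.5, 28.6, 30.2 and 30.9. The knockouts were the higher group on both backgrounds. WT was the low group of the 4 genotypes, and APP-KI;C3aRKO 1 the highest library. The log2 difference was 1.06 (SE 0.32) on WT and 0.64 (SE 0.29) on APP-KI. Without APP-KI;C3aRKO 1 the second was 0.32 (SE 0.18), and without the 5 libraries they were 1.05 (SE 0.10) and 0.39 (SE 0.096). It was positive in both library series, at 1.19 and 1.07 on WT and at 0.88 and 0.40 on APP-KI. The 3 APP-KI libraries differed from each other by less than 1 scaled unit.

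Clec1a encodes a C-type lectin receptor of the natural killer gene complex known from myeloid and endothelial cells. It was 2.53, 2.89 and 3.48 in WT and 0, 0 and 2.45 in C3aRKO. In APP-KI it was 16.3, 21.8 and 22.5, and in APP-KI;C3aRKO 0, 7.37, 5.35, 8.43 and 6.79. The 3 libraries without a Clec1a read, C3aRKO 1, C3aRKO 2 and APP-KI;C3aRKO 1, were the 3 knockout libraries with few genes detected. A count of 0 allows up to 3 reads, or scaled values of 0.0442, 0.0472 and 0.0679 in these libraries, by counting error alone. The knockout library of the WT background with usual gene detection, C3aRKO 3, lay just below the lowest WT library. On APP-KI the 4 other knockout libraries lay between 5.35 and 8.43, well below the controls. The log2 difference was -1.05 (SE 0.66) on WT and -2.28 (SE 0.59) on APP-KI, with -1.82 and -2.78 within the 24 series and -0.27 and -1.60 within the 26 series, which holds 1 C3aRKO and 1 APP-KI library. Leaving out the 5 libraries gave -0.21 (SE 0.25) and -1.56 (SE 0.24).

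In the fit of all 14 libraries, the 4 genes nearest to C3ar1 differed less between knockout and control than Mical3, Erc1 and Clec1a. Foxj2, a forkhead transcription factor gene, was 175, 170 and 156 in WT and 220, 163 and 196 in C3aRKO. It was 134, 121 and 125 in APP-KI and 174, 156, 147, 136 and 137 in APP-KI;C3aRKO. The groups overlapped on WT, and on APP-KI every knockout library lay above every control, the closest by less than the spread within either group. As a log2 difference this was 0.16 (SE 0.14) on WT and 0.26 (SE 0.13) on APP-KI, positive within both library series (0.12 and 0.26 on WT, 0.37 and 0.15 on APP-KI). Leaving out the 5 libraries gave 0.27 (SE 0.087) and 0.16 (SE 0.083).

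Necap1, which encodes an adaptor of clathrin-mediated endocytosis, was between 37.2 and 38.8 in WT and between 25.3 and 44.7 in C3aRKO. It was between 27.3 and 35.6 in APP-KI and between 35.5 and 42.7 in APP-KI;C3aRKO. The knockout and control libraries overlapped on both backgrounds, and the log2 differences of -0.15 (SE 0.22) and 0.25 (SE 0.20) had opposite signs. They were -0.14 (SE 0.088) and 0.036 (SE 0.085) without the 5 libraries.

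Clec4a1 and Clec4a3 encode C-type lectin receptors of the DCIR family on myeloid cells. Clec4a1 was 7.03, 15.8 and 15.6 in WT, 12.2, 18.3 and 9.05 in C3aRKO, 0.53, 5.34 and 5.09 in APP-KI, and 2.42, 6.64, 6.34, 7.01 and 4.43 in APP-KI;C3aRKO. Clec4a3 was 28.5, 36.8 and 33.4 in WT, 31.8, 54.3 and 33.8 in C3aRKO, 3.77, 17.1 and 15.2 in APP-KI, and 9.30, 17.2, 15.7, 16.6 and 15.6 in APP-KI;C3aRKO. In both genes the knockouts overlapped their controls, and the large step was between the WT and APP-KI backgrounds. The log2 differences of knockout minus control were 0.21 (SE 0.56) and 0.53 (SE 0.50) for Clec4a1 and 0.33 (SE 0.44) and 0.40 (SE 0.39) for Clec4a3. Between C3aRKO and WT they were of opposite sign in the 2 library series, at 0.99 and -0.73 for Clec4a1 and at 0.53 and -0.05 for Clec4a3. Without the 5 libraries they were -0.52 (SE 0.38) and 0.31 (SE 0.36) for Clec4a1, which turns the sign on WT, and 0.016 (SE 0.14) and 0.11 (SE 0.14) for Clec4a3. Leaving out APP-KI;C3aRKO 1 alone gave 0.73 (SE 0.51) for Clec4a1 and 0.56 (SE 0.40) for Clec4a3 on APP-KI, above Erc1 at 0.32 (SE 0.18).

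The Klrb1 genes had low values that differed in which of the copies held the reads. Klrb1a was 0.059, 0.36 and 0.14 in WT and 0, 0.47 and 0.27 in C3aRKO, so the groups overlapped. It was 0.25, 2.32 and 1.61 in APP-KI and 0, 7.06, 6.15, 7.71 and 8.16 in APP-KI;C3aRKO. Apart from APP-KI;C3aRKO 1, which had no read, the double mutants were the highest of the 14 libraries, with between 348 and 502 Klrb1a reads. On the log2 scale the difference was 1.10 (SE 0.63) on APP-KI, and 0.48 and 1.67 within the 24 and the 26 series. It was 1.82 (SE 0.42) without APP-KI;C3aRKO 1 and 1.69 (SE 0.23) without the 5 libraries. Between C3aRKO and WT it was 0.30 (SE 0.70), and 0.057 (SE 0.24) without them.

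Klrb1b encodes an inhibitory receptor of the same family. It was 0.99, 2.71 and 3.09 in WT and 0, 0 and 0.48 in C3aRKO, without overlap. It was 0.11, 7.48 and 7.07 in APP-KI and 0.023, 1.44, 0.64, 1.12 and 1.19 in APP-KI;C3aRKO. There the low APP-KI 4, with 5 reads, fell among the knockout libraries, and the other 2 controls stood clear above them. This gave a log2 difference of -1.21 (SE 0.66) on WT and -1.43 (SE 0.58) on APP-KI, negative within both library series (-0.99 and -1.39 on WT, -0.96 and -2.04 on APP-KI). The fit without the 5 libraries gave -1.17 (SE 0.41) and -1.89 (SE 0.39).

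Klrb1c encodes the receptor that carries the NK1.1 antigen in C57BL/6 mice. It fell below the filter and was not fitted. It was 0.25, 0.22 and 0.19 in WT and 0.074, 0.016 and 0.30 in C3aRKO, which overlap. In APP-KI it was 2.13, 3.54 and 2.37, from 101, 169 and 128 reads. In APP-KI;C3aRKO it was 0.11, 0.20, 0.071, 0.069 and 0.084, from 5, 14, 4, 4 and 5 reads. The 5 double-mutant libraries all lay far below the 3 APP-KI libraries.

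The share of the summed Klrb1a, Klrb1b and Klrb1c reads that went to Klrb1a was computed for each library, a measure chosen after the values had been seen. It was 4.55% (95% Wilson interval 1.78 to 11.1), 10.8% (7.56 to 15.3) and 4.20% (2.30 to 7.56) in WT. In APP-KI it was 10.2% (5.91 to 16.9), 17.4% (14.7 to 20.6) and 14.6% (12 to 17.6). In APP-KI;C3aRKO 2 to 5 it was 81.2% (78.0 to 84.1), 89.7% (86.3 to 92.3), 86.7% (83.5 to 89.3) and 86.5% (83.5 to 89.1), while APP-KI;C3aRKO 1 held 0 of 6 reads. Where the double mutants held more than 6 reads, Klrb1a took most of them, and in APP-KI it took the smaller part in every library. The C3aRKO libraries held few reads, with 0 of 5, 30 of 31 and 17 of 67 for Klrb1a. The intervals cover counting error only. The reads of the 3 genes together numbered between 388 and 618 in APP-KI;C3aRKO 2 to 5 and 118, 637 and 597 in APP-KI.

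**Figure D2:**
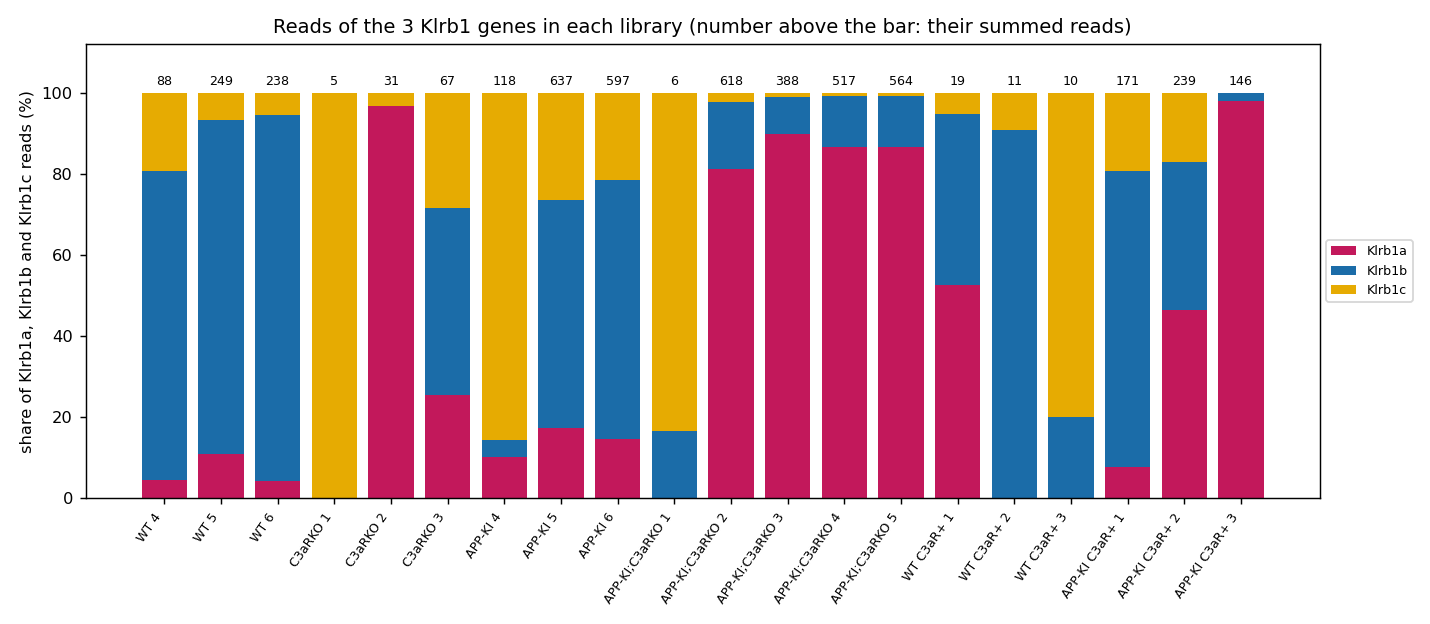
Share in percent of the reads of Klrb1a, Klrb1b and Klrb1c that each of the 3 genes holds, stacked, in each of the 20 libraries, with the summed reads above each bar. Klrb1a takes between 81.2% and 89.7% in APP-KI;C3aRKO 2 to 5 and 10.2% to 17.4% in the 3 libraries of APP-KI, while bars with 31 reads or fewer carry wide counting error.

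The C3aR-positive libraries differed among themselves in the same measure. In the 3 APP-KI C3aR-positive libraries, Klrb1a held 7.60% of 171 reads, 46.4% of 239 and 97.9% of 146. The first lies just under the range of the all-sorted APP-KI libraries, and the third above every APP-KI;C3aRKO library. Klrb1c was 1.71, 1.78 and 0 scaled units in the same libraries, the last from 0 reads, which allows up to 0.236. The 3 WT C3aR-positive libraries held only 19, 11 and 10 reads of the 3 genes.

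Markers of natural killer and T cells, which make Klrb1 receptors, were summed over 14 genes, all listed. The sum was between 5.06 and 7.69 in WT, 15.8 and 92.7 in C3aRKO, 3.68 and 110 in APP-KI, and 2.72 and 79.8 in APP-KI;C3aRKO. In APP-KI;C3aRKO 3 to 5, in which Klrb1a was at least 6.15, the sum was 2.72, 4.44 and 3.18. In APP-KI 6, in which Klrb1b was 7.07, it was 3.68. In other libraries with high values the sum was higher, at 57.5 in APP-KI;C3aRKO 2 (Klrb1a 7.06) and 110 in APP-KI 5 (Klrb1b 7.48). The part of natural killer and T cells in the Klrb1 reads was not tested. Ncr1, a defining natural killer marker, had no read in 3 of the 5 APP-KI;C3aRKO libraries, in 1 C3aRKO library and in all 6 C3aR-positive libraries. Other markers of the list did not share this. Gzmb, Prf1, Cd3g, Il2rb and Ccl5 had reads in every APP-KI;C3aRKO library, and Prf1 and Ccl5 also in every C3aR-positive library. The 9 microglial markers were all listed and summed to between 9755 and 31030 in the 20 libraries.

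**Figure D3:**
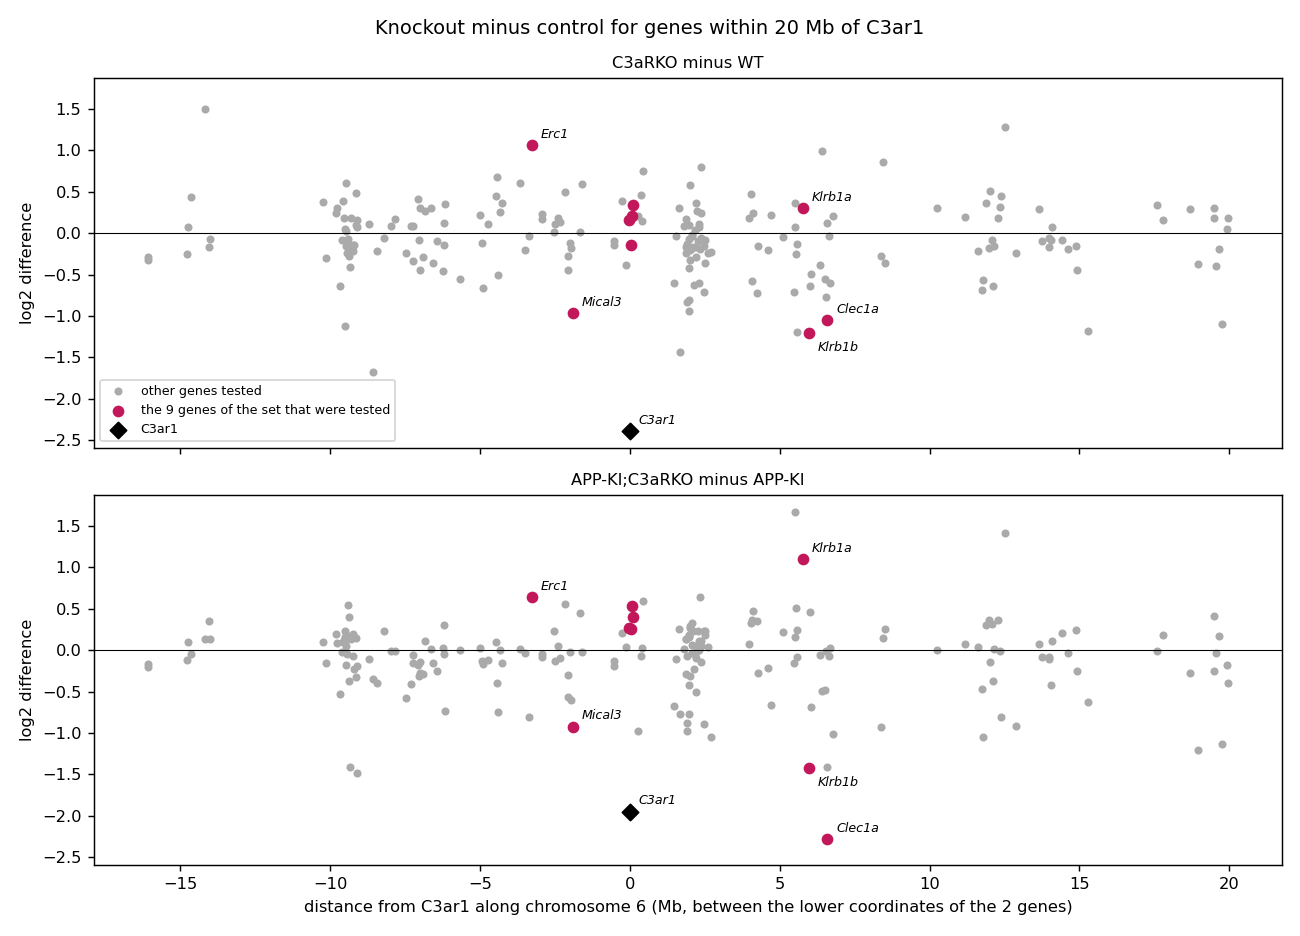
Log2 difference of knockout minus control (vertical axis) for each gene tested within 20 Mb of C3ar1, against its distance from C3ar1 in Mb (horizontal axis). C3aRKO minus WT is in the upper panel and APP-KI;C3aRKO minus APP-KI in the lower. The unnamed coloured points at 0 Mb are Foxj2, Necap1, Clec4a1 and Clec4a3. Of the 9 coloured genes, Necap1 alone lies on opposite sides of 0 in the panels, and other genes lie scattered around 0.

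Along the chromosome, the genes separated on both backgrounds were set beside their neighbours. Of 12 genes tested within 1 Mb of C3ar1, the 4 named above and 8 others, 0 were separated on both. Among the 8 others, M6pr (-0.15), Phc1 (-0.13), Apobec1 (0.30), Slc2a3 (-0.18), Clec4a2 (-0.39), Clec4n (0.19), Clec4d (0.087) and Clec4e (0.67) had mean log2 differences over both backgrounds that limma did not call (adjusted p at least 0.969), and Apobec1 was the 1 of them past an unadjusted p of 0.05. Between 1 and 5 Mb, 77 genes were tested and 2 were separated, Mical3 and Erc1. Between 5 and 10 Mb, 73 were tested and 2 were separated, Clec1a and Foxm1. Beyond, there were 0 of 48 between 10 and 20 Mb and 0 of 391 on the rest of the chromosome. On the other chromosomes 6 of 11654 (0.0515%) were separated, Coq6, Sfxn1, Smad2, Zfp983, Tmem251 and Zfp874a, and 1 further gene, Cfap410, was not placed. Mical3, Erc1 and Clec1a were among the genes chosen on these values, so nothing is read from the counts that include them. Without the 10 genes, 0 of 75 between 1 and 5 Mb and 1 of 70 between 5 and 10 Mb, Foxm1, were separated. Genes between the separated ones, Foxj2 to Clec4a3 included, were not separated on both. Foxm1, a cell cycle transcription factor gene 5.52 Mb from C3ar1 and outside the 10, was between 12.8 and 16.0 in WT, 17.4 and 18 in C3aRKO, 0.65 and 12.4 in APP-KI and 16.6 and 35.4 in APP-KI;C3aRKO.

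APP-KI was compared with WT to see whether the same genes also moved in mice that carried no knockout allele. The C3aR-positive mice did carry the reporter allele in C3ar1, and its copies in each library are not stated. In those libraries, a difference in that allele or the DNA around it cannot be told apart from APP-KI. The C3aR-positive libraries took no part in choosing the genes, and the all-sorted WT and APP-KI libraries served as the controls when the genes were chosen. In C3aR-positive microglia, limma called 5 of the 9 genes tested, where it called 22.7% of all 12315 genes. Clec1a and Erc1 rose in APP-KI (13% of all genes did), and Mical3, Clec4a1 and Clec4a3 fell (9.7%). In all-sorted microglia it called 2 of 9, Clec1a and Erc1, both higher, against 4.14% of all genes called in either direction and 2.22% called as higher. Since the all-sorted libraries were the controls in choosing the genes, the all-sorted p-values of these genes are not independent of that choice. Nothing is read from the count in all-sorted microglia. The authors' scaling leaves the median gene at -0.17 in the C3aR-positive comparison, where median ratio scaling leaves it at -0.03, so the differences relative to the median gene are also given.

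Clec1a rose most. In C3aR-positive microglia it was 0.19, 0.39 and 0.46 in WT and 9.10, 15.1 and 18.3 in APP-KI. As a log2 difference this was 3.45 (SE 0.45), or 3.61 above the median gene, with an adjusted p of 0.000746 by limma, and it was called under each of 12 alternative settings. In all-sorted microglia it was 2.75 (SE 0.66, adjusted p = 0.0291 by limma). That call was lost when any 1 of the 6 WT and APP-KI libraries was left out (adjusted p between 0.0699 and 0.118), and on the recovered reads by edgeR (0.602) and DESeq2 (0.328), while all 3 APP-KI libraries lay above all 3 WT libraries and both library series gave 2.49.

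Erc1 was 11.9, 14 and 13.5 in WT C3aR-positive libraries and 31.8, 17.8 and 66.8 in those of APP-KI, each above every WT value. On the log2 scale the difference was 1.30 (SE 0.41), or 1.47 above the median gene (adjusted p = 0.0449 by limma). Leaving out any 1 library other than APP-KI C3aR-positive 2 ended the call (adjusted p between 0.0828 and 0.112), and the difference was 0.82 without APP-KI C3aR-positive 3, the highest. In all-sorted microglia it was 1.26 (SE 0.32, adjusted p = 0.0408 by limma), a call lost without any 1 of the 6 WT and APP-KI libraries (adjusted p between 0.0779 and 0.273) and without C3aRKO 3 or APP-KI;C3aRKO 3, 4 or 5 (0.0573 to 0.0694). Within the 24 and the 26 series it was 1.40 and 1.28. Erc1 was thus higher in APP-KI than in WT, and higher in each knockout group than in its own control. C3aRKO, at 17.8 to 21.9, lay below APP-KI, at 22.4 to 23.2. On APP-KI the knockout difference was 0.32 (SE 0.18) without APP-KI;C3aRKO 1.

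Mical3 was 133, 97.0 and 137 in WT C3aR-positive libraries and 79.5, 78.0 and 41.0 in those of APP-KI. This gave a log2 difference of -0.92 (SE 0.25), or -0.75 against the median gene (adjusted p = 0.0265 by limma). The call was lost without WT C3aR-positive 1 (adjusted p = 0.0840) or 3 (0.0905) and by edgeR on the recovered reads (0.0541). In all-sorted microglia the difference was -0.67 (SE 0.24, adjusted p = 0.184 by limma), -0.56 and -0.98 within the 24 and the 26 series, and it was called without APP-KI 4 (-0.89, adjusted p = 0.0486) or without APP-KI;C3aRKO 1 (-0.72, 0.0353).

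The lectin genes beside C3ar1 fell. Clec4a3 was 29.5, 31.5 and 38.9 in WT C3aR-positive libraries and 9.46, 12.7 and 14.5 in those of APP-KI, a log2 difference of -1.39 (SE 0.25), or -1.22 against the median gene (adjusted p = 0.00425 by limma), called under each of 12 alternative settings. Clec4a1 was 9.58, 16.2 and 10.7 against 4.76, 3.17 and 2.83, a log2 difference of -1.51 (SE 0.39), or -1.34 against the median gene (adjusted p = 0.0210 by limma). Its call was lost without WT C3aR-positive 2 (adjusted p = 0.101) or 3 (0.0573) or APP-KI C3aR-positive 2 (0.0533). In all-sorted microglia the differences were -1.50 (SE 0.44) for Clec4a3 and -1.60 (SE 0.56) for Clec4a1, with adjusted p-values of 0.0779 and 0.174 by limma, and every APP-KI library lay below every WT library in both. Within the 24 and the 26 series they were -1.67 and -1.16 for Clec4a3 and -1.37 and -1.46 for Clec4a1. Clec4a3 was called there without APP-KI 5 (-1.87, adjusted p = 0.0282) or APP-KI;C3aRKO 1 (-1.54, 0.0433).

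The remaining genes were not called. In C3aR-positive microglia the log2 differences were -0.28 (SE 0.11, adjusted p = 0.0927 by limma) for Foxj2 and -0.08 (SE 0.18, 0.749) for Necap1. For Klrb1a it was 2.16 (SE 0.72, adjusted p = 0.0571 by limma) and for Klrb1b 1.49 (SE 0.70, 0.152). Klrb1a was called without APP-KI C3aR-positive 1 (2.94, adjusted p = 0.0110) and Klrb1b without APP-KI C3aR-positive 3 (2.24, 0.0262), in each case the library that holds few of its reads. With all libraries kept, Klrb1a was called with a pseudocount of 0.1 (4.44, adjusted p = 0.0389 by limma). It was also called by edgeR on the recovered reads (5.67, adjusted p = 0.0396). DESeq2 on the recovered reads called both (5.82, adjusted p = 0.000167, and 3.81, 0.00834). In all-sorted microglia the differences were -0.43 (SE 0.14) for Foxj2, -0.26 (SE 0.22) for Necap1, 1.15 (SE 0.70) for Klrb1a and 0.68 (SE 0.66) for Klrb1b, with adjusted p-values of 0.144, 0.818, 0.631 and 0.858. Foxj2 was called there without C3aRKO 2 (-0.44, adjusted p = 0.0458 by limma). Leaving out the 5 libraries that stood apart keeps 1 APP-KI library, APP-KI 6, so only the size of the difference is given. In all-sorted microglia it was then -0.98 for Mical3, -0.37 for Foxj2, -1.09 for Clec4a3 and 1.10 for Klrb1a.

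**Figure D4:**
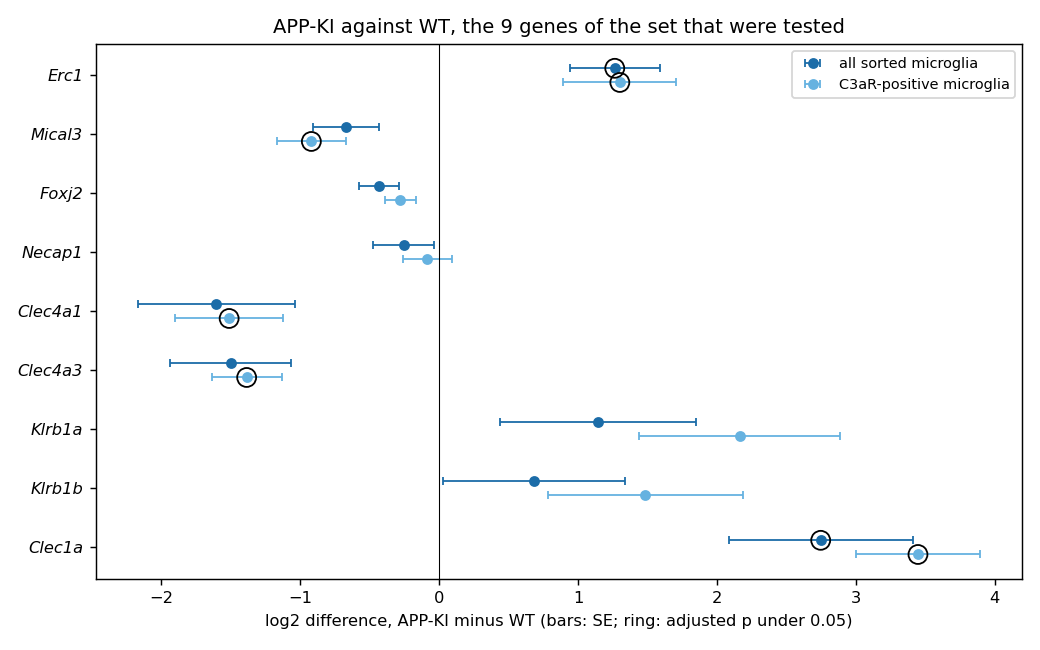
Log2 difference of APP-KI minus WT (horizontal axis) for each of the 9 genes tested (vertical axis), in all-sorted and in C3aR-positive microglia, 3 libraries a group. Bars give the SE of limma, and rings mark an adjusted p under 0.05. Rings sit on Erc1 and Clec1a in both and on Mical3, Clec4a1 and Clec4a3 in C3aR-positive microglia.

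Markers of other cells that moved with these differences were as follows. The 7 border macrophage markers, all listed, reached 496 to 751 in WT and 221 to 407 in APP-KI C3aR-positive libraries, and the 7 dendritic cell markers reached 52.5 to 76.8 in WT and 21.5 to 29.7 in APP-KI. Both sums were lower in the libraries with lower Clec4a1 and Clec4a3, and their part in the result was not tested. The 6 endothelial markers reached 46.3 to 92.5 in WT and 171 to 326 in APP-KI C3aR-positive libraries, beside the higher Clec1a. In all-sorted microglia the same sums were 475 to 1278 in WT and 286 to 296 in APP-KI for border macrophages, 45.4 to 66.6 and 19.6 to 62.6 for dendritic cells, and 48.5 to 59.4 and 203 to 258 for endothelial cells. Most of the endothelial sum was Flt1, at 155 to 314 in APP-KI C3aR-positive libraries, while Cldn5 was between 0.83 and 6.78 in WT and between 0.079 and 0.57 in APP-KI. Their part in the Clec1a result was not tested. Over all 20 libraries, the 7 markers of monocytes and neutrophils summed to between 28.7 and 394, the 5 of neurons to between 0.045 and 18.7, the 5 of astrocytes to between 207 and 389 and the 5 of oligodendrocytes to between 63.1 and 171.

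The WT C3aR-positive libraries, which carry the reporter in C3ar1 and no knockout allele, were set beside the all-sorted WT libraries. For 4 of the 10 genes the libraries did not overlap, where 23.2% of all genes tested did not. Mical3, Clec1a and Klrb1b were lower (13.4% of all genes) and Erc1 was higher (9.8%), with Mical3 at 97.0 to 137 against 143 to 193 and Erc1 at 11.9 to 14 against 8.08 to 8.68. Clec1a was at 0.19 to 0.46 against 2.53 to 3.48, and Klrb1b at 0.071 to 0.49 against 0.99 to 3.09. These are the 4 genes that did not overlap between C3aRKO and WT, in the same directions, and the WT libraries are shared by both comparisons. The genes were chosen in part on these WT libraries, so nothing is read from the match. For APP-KI, 1 of the 10 genes did not overlap between C3aR-positive and all-sorted libraries, Klrb1c, which was lower (6.04% of all genes tested). The sort, the reporter allele and the library series differ together between these libraries and cannot be told apart.

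The gene families around the 10 genes were described from lists of their members. Of 9 Clec4 cluster genes, 6 were tested. In C3aR-positive microglia limma called 3 of them as lower in APP-KI and 0 as higher, beside 9.7% and 13% of all genes tested. They were Clec4a1, Clec4a3 and Clec4a2 (-1.72, SE 0.29, adjusted p = 0.00285 by limma). The median log2 difference of the 6 was -1.11, beside -0.17 over all genes tested. In all-sorted microglia 0 of the 6 were called, beside 4.14% of all genes tested. Of 42 genes on the list of the natural killer gene complex, 40 were listed and 12 tested. The list also holds Klrg1 and Clec2l, which lie outside the complex on the Foxj2 side of C3ar1 and were not among those tested. Clec1a and Clec9a (1.97, SE 0.50, adjusted p = 0.0206 by limma) rose and Clec12a (-1.35, SE 0.41, 0.0395) and Klra2 fell in C3aR-positive microglia, and the median of the 12 was 1.29. That is 2 of the 12 called as higher and 2 as lower, beside 13% and 9.7% of all genes tested. In all-sorted microglia 1 of the 12 was called, Clec1a, beside 4.14% of all genes tested. Nothing is read from these counts. Of the 9 tested genes of the complex outside the 10, 0 were separated between knockout and control on both backgrounds, beside 0.0967% of all genes tested.

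Over the 14 all-sorted libraries, the gene whose log2 values followed a tested gene most closely is given for 8 of the 9, and was on another chromosome in each of them. By Pearson's r these were Ifi203 for Mical3 (0.88), Zfp704 for Erc1 (0.92), Slc1a3 for Foxj2 (0.94), Rrs1 for Necap1 (0.94), Zkscan6 for Clec4a1 (0.94), Ncoa4 for Clec4a3 (0.97), Cpd for Klrb1a (0.91) and Mal for Klrb1b (0.86). The correlations are a description over libraries that share genotype and library series. Of the 12410 genes tested, 602 were on chromosome 6, so nothing is read from the chromosome of the closest gene.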

How the data were processed

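The study sorted CD45mid CD11b+ microglia, on Td-tomato for the C3aR-positive libraries, made libraries with a kit that adds molecular identifiers, and aligned the reads to mm10 with TopHat v2.0.9. The submitters' processing notes also name cutadapt, featureCounts and DESeq2. How identifiers and strand were used in counting is not given in the sources used here. The deposited values, named FPKM by the authors, are a signal in which the authors divided each gene's reads by the 75th percentile of that library, and gene length was not used. Multiplied back, 100% of the values came within 0.02 of a whole number of reads.

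All values were multiplied by 35.2. A gene entered a fit if its scaled values averaged 1 or more there. The limma package (3.58.1, under R 4.3.3) compared log2(scaled value + 1), a scale that understates changes of low genes, with a trend of variance on mean. P-values were adjusted by Benjamini-Hochberg over all genes tested, with a threshold of 0.05. One fit held the 14 all-sorted libraries, with their number series (24 or 26) as a covariate, and another the 6 C3aR-positive libraries. The fits were tested on simulated data. Groups were taken from the labels, and p-values measure the spread between the labelled samples. No 2 libraries of a group agreed within counting noise (chi-square per degree of freedom at least 18.5).

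The 10 genes and the lists were chosen with earlier results of these data known. Named are the 10 genes, C3ar1, genes that a knockout comparison calls, the genes within 1 Mb of C3ar1 and the gene most like each, of which 1 is not reported here. Foxm1, the other separated genes and the list members were named after their values were seen. Positions and coding sequences came from GENCODE M21, which placed 20968 of 21315 symbols, and mafft aligned the coding sequences. Alternatives were a pseudocount of 0.1, no filter, median ratio scaling, no series term, only the groups compared, a replicate block, each library left out, edgeR 4.0.16, DESeq2 1.42.0 and, added after seeing the data, leaving out the 5 libraries that stood apart.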

Additional observations from a re-analysis of the deposited data

Results flagged for a closer look

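In 12 groups of values with 5 samples, the highest and lowest APP-KI;C3aRKO library of C3ar1, each of the 10 genes and the Klrb1a share was compared with the others by Dixon's test, which chance passes in about 1 in 20 groups. It marked 4, all APP-KI;C3aRKO 1, the library with the fewest genes detected. Its Erc1 value of 69.7 stood above 26.5 to 30.9 in the other 4, and its Clec4a3 value of 9.30 below 15.6 to 17.2. Its Klrb1a value was 0 against 6.15 to 8.16, and its Klrb1a share of the Klrb1 reads was 0% of 6 reads against 81.2% to 89.7%. The share rests on the same Klrb1a reads as the value, and the 12 groups hold the same 5 libraries. The 4 marks are thus not independent of each other.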

How the results depend on the processing

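Of the values recomputed under the alternatives, 907 kept their direction and their side of the threshold or moved by less than the spread between libraries, 42 lost a call, 17 gained one, 25 moved and 5 reversed. The 5 reversed values belonged to genes that were not called: C3ar1 in all-sorted APP-KI against WT was 0.17 without APP-KI 4 (between -0.41 and 0.17 with 1 library left out) and 0.29 without the 5 libraries that stood apart, and Necap1 in C3aR-positive microglia was 0.058 under median ratio scaling, 0.024 by edgeR and 0.051 by DESeq2. The count of genes called for C3aRKO against WT, 1, became 0 with only the groups compared (401 at an unadjusted p under 0.05), 9 by DESeq2 and 0 to 21 with 1 library left out, the most without C3aRKO 3. For APP-KI;C3aRKO against APP-KI, 1 became 2 without a filter, 0 with only the groups compared (42 unadjusted) and 0 to 1 with 1 library left out. For both backgrounds together, 1 became 5 by DESeq2 and 1 to 2 with 1 left out. Only the groups compared could not be run there, since it uses all 4 groups. For APP-KI against WT in all-sorted microglia, 514 became 1904 without the 5 libraries and 218 to 837 with 1 left out, and in C3aR-positive microglia 2797 became 1777 to 2528. The number of the 10 genes separated on both backgrounds, 3 (0.0967% of all genes tested were), became 5 without the 5 libraries (4.82%). It became 2 on scaling by the total reads (0.137%) and stayed between 3 and 4 with 1 left out (0.113% to 0.677%). Without a filter on low values, more genes share the adjustment, and limma no longer called Erc1 (adjusted p = 0.121), Mical3 (0.0887) and Clec4a1 (0.0661) in C3aR-positive or Erc1 (0.0668) and Clec1a (0.0891) in all-sorted microglia, and Clec1a was not called there with a pseudocount of 0.1 (0.280) or no series term (0.107). The cause of the other changes was not tested. The smaller number of libraries in each leave-out is part of its construction.

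The replicate numbers were not used for pairing, because same-numbered WT and APP-KI libraries deviated together only weakly (r of 0.25, 0.09 and 0.09 in all-sorted and 0.02, 0.04 and -0.01 in C3aR-positive microglia). With a replicate block the count was 674 in all-sorted and 2240 in C3aR-positive microglia. Under it Clec4a1 and Clec4a3 were called in all-sorted microglia (adjusted p = 0.0338 and 0.0314 by limma), and Erc1 was not called in C3aR-positive microglia (0.0522).

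Groups of 3, few reads for the Klrb1 genes and Clec1a, and 5 libraries of unusual gene detection limit these values.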
